A study of Mus musculus with 6 samples.

Results

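The 39 genes listed here act in endoplasmic reticulum (ER) stress and ER protein folding. They were listed by gene name, with earlier results of these data known. Of them, 36 were read by a transcript cluster of their own and 3 by a cluster shared with another gene. In all, 16825 genes were tested. The arrays read T cells carrying CD4 and CD25, the markers used to enrich regulatory T cells, taken from spleens with magnetic beads (MACS). There were 3 arrays from Keap1_KO mice (Vav-Cre with floxed Keap1, labelled Keap1 -/-; replicates B, C and D) and 3 arrays from WT mice (labelled Keap1 +/+; replicates A, D and F). Vav-driven Cre acts across blood-forming cells, so other leukocytes in these mice can lack Keap1 as well, and the labels do not say whether WT mice carry Cre or floxed alleles. All 6 samples are labelled male, C57BL/6 and untreated. The labels give the age as 10 to 12 months in one field and as 6 to 10 weeks in another. The sample labels give the cells as CD4+, whereas the title of the series has CD4-. The design text calls the triplicates independent without saying that each is 1 mouse, so the p-values below refer to array-to-array spread, which may be partly technical.

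The ER folds and modifies proteins bound for the cell surface or for secretion. When unfolded protein builds up, the membrane sensors IRE1 (gene Ern1), PERK (gene Eif2ak3) and ATF6 start the unfolded protein response. IRE1 splices the mRNA of Xbp1, cleaved ATF6 moves to the nucleus, and both raise chaperones, disulfide enzymes and degradation factors, partly through the ER stress response element (ERSE) of their promoters. Plasma cells depend on XBP1 and hold far more of this machinery than T cells do. KEAP1, the deleted protein, marks the transcription factor NRF2 for degradation.

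The ERSE letters stood in the promoters of 9 of the 32 listed genes that the RefSeq promoter table (GRCm38.p6) holds, or 28.1%. The same letters, CCAAT and CCACG separated by 9 bases, on either strand, stood in 37 of all 27025 genes of that table, or 0.137%. Each window runs from 250 bases before to 50 after the gene start. The 9 genes are shown because they share this element while the size of their difference between genotypes varied widely. The stretches are given 5′ to 3′ on the strand of the gene, with 10 bases on either side, and capitals mark the CCAAT and CCACG parts (ATTGG and CGTGG where the element lies on the other strand).
Hspa5 (chr2:34772015-34772053, plus strand): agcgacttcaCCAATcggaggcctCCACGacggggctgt
Hsp90b1 (chr10:86705523-86705561, minus strand): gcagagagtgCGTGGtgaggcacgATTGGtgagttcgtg
Hsp90b1 (chr10:86705628-86705666, minus strand): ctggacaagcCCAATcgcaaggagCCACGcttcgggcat
Calr (chr8:84847065-84847103, minus strand): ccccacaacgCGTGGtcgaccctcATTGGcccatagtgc
Canx (chr11:50325790-50325828, minus strand): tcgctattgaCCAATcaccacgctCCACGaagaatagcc
Dnajc3 (chr14:118937817-118937855, plus strand): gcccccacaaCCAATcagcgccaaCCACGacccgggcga
Creld2 (chr15:88819510-88819548, plus strand): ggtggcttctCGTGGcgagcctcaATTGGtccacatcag
Pdia6 (chr12:17266481-17266519, plus strand): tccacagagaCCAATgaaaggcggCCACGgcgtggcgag
Ero1lb (chr13:12565672-12565710, plus strand): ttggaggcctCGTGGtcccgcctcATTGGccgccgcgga
Syvn1 (chr19:6046522-6046560, plus strand): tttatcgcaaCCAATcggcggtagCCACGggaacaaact

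The first base of the element lay between 44 bases (Syvn1) and 212 bases (the farther of 2 in Hsp90b1) before the gene start. The ERSE-II letters, ATTGG and CCACG separated by 1 base, stood in 2 listed genes, Dnajb11 and Herpud1 (6.25%, against 0.0444% of all genes). The XBP1 element TGACGTGG, the cAMP response element TGACGTCA and the antioxidant response element of NRF2 (TGA and GCA separated by 4 bases) were in none of the listed windows. In all genes of the table their shares were 0.714%, 2.03% and 14.7%. The absence of these letters concerns these windows only. The whole windows of Creld2, whose element is an ERSE, and Herpud1, whose element is an ERSE-II, follow, since both genes are described below by their values on every array, with capitals on these elements.
Creld2 (chr15:88819396-88819695, plus strand): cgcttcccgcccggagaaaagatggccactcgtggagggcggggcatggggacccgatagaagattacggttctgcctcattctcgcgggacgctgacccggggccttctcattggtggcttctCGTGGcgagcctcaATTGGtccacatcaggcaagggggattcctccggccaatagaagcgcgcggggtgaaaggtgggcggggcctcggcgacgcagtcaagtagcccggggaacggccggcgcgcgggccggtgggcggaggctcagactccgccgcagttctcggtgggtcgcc
Herpud1 (chr8:94386179-94386478, plus strand): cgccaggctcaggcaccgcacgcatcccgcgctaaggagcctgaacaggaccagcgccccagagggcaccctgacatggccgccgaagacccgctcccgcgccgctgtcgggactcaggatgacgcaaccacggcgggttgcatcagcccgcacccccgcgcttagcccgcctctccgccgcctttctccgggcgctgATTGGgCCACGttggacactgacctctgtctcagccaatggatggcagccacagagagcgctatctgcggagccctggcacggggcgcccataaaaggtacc

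The identity of the samples was checked first. Keap1 had log2 values of 4.87, 4.89 and 4.70 in Keap1_KO cells, against 5.30, 5.41 and 5.77 in WT cells, so the groups did not overlap (exact two-sided permutation p = 0.1, the smallest that 3 arrays against 3 allow). These values lie near the array medians of 5.16 to 5.43, and probes outside the deleted part would not report the loss. All 10 CD4 T cell and Treg markers with a cluster of their own lay at or above the array median on all arrays. So did all 9 B cell and all 8 plasma cell markers with a cluster of their own, so this bar does not single out T cells. The Foxp3 cluster is shared with other transcripts. Pairs of arrays of 1 genotype correlated at 0.958 to 0.983 and pairs of unlike genotype at 0.927 to 0.988, so the arrays did not separate cleanly by genotype.

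Most ER genes had a somewhat higher mean in Keap1_KO cells, and none passed the test. Of the 36 genes, 31 had a higher and 5 a lower mean, with a median difference (Keap1_KO minus WT, log2) of 0.42. Over all 16825 genes, 56.5% had a higher mean and the median difference was 0.061. No ER gene had an adjusted p under 0.05 by limma with Benjamini-Hochberg adjustment over all genes, where the share called was 0.0% of all genes, and the lowest adjusted p among them was 0.476. At an unadjusted p under 0.05, 4 ER genes were higher (Edem2, Creld2, Ssr2 and Syvn1) and none lower, against 8.38% of all genes higher. In 3 ER genes every Keap1_KO array lay above every WT array (Creld2, Syvn1 and Edem2), which is 8.33% of the 36, against 9.11% of all genes. No ER gene had every Keap1_KO array below every WT array, against 4.96% of all genes. The counts of called and of non-overlapping genes were therefore near the background, while the share with a higher mean (86.1%) lay above it. Of the 16825 genes, 10996 were coding genes of known span, and their share with a higher mean varied with span, as given below.

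**Figure D1:**
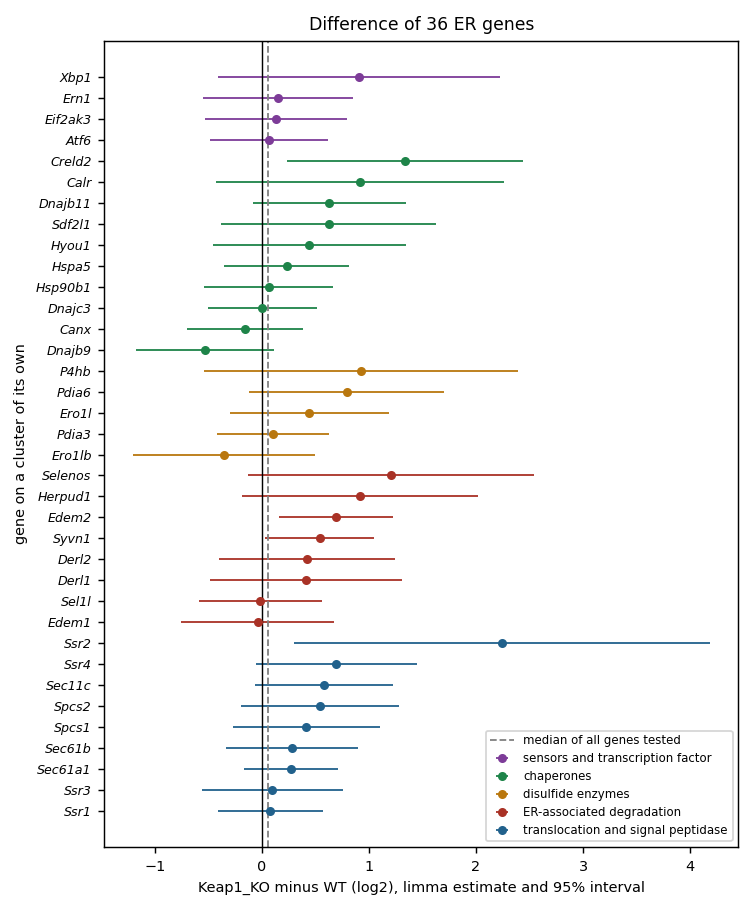
Difference of each of the 36 ER genes with a cluster of its own (x axis, Keap1_KO minus WT, log2, limma estimate with its 95% interval; y axis, genes by role). The intervals of Creld2, Edem2, Syvn1 and Ssr2 lie above 0, the other 32 span 0, and the dashed line is the median of all genes tested, 0.061.

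None of the 3 sensors differed by more than the spread between arrays, and Xbp1 had a higher mean in Keap1_KO cells without passing the test. Xbp1, the transcription factor gene downstream of IRE1, read 8.39, 9.82 and 10.35 on Keap1_KO B, C and D, against 8.52, 9.22 and 8.10 on WT A, D and F. Keap1_KO C and D were the highest arrays and Keap1_KO B lay among the WT arrays. The difference was 0.91 (SE 0.55; limma adjusted p = 0.511). A single gene-level cluster read Xbp1, so its spliced and unspliced mRNA were not separated. Ern1, which encodes IRE1, read 7.82, 7.66 and 8.02 in Keap1_KO cells, against 7.75, 8.17 and 7.12 in WT cells. Eif2ak3, which encodes PERK, read 8.47, 7.81 and 8.74 in Keap1_KO cells, against 8.32, 8.33 and 7.98 in WT cells. Atf6 read 9.06, 8.56 and 9.16 in Keap1_KO cells, against 9.10, 8.84 and 8.64 in WT cells. The groups overlapped for all 3 sensors, and their differences were 0.15 (95% interval -0.55 to 0.85), 0.13 (-0.53 to 0.79) and 0.062 (-0.49 to 0.61) in that order.

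Among the chaperones, the abundant ER-lumen chaperone Hspa5 (BiP), the usual readout of ER stress, differed by less than the SE of its difference (0.24). It read 12.61, 13.20 and 13.30 in Keap1_KO cells, against 12.63, 13.04 and 12.75 in WT cells (difference 0.23, 95% interval -0.35 to 0.81). Keap1_KO B was the lowest of the 6 arrays, while Keap1_KO C and D lay above every WT array. Hsp90b1, the ER-resident HSP90 (difference 0.062), and Dnajc3, a BiP co-chaperone (0.0053), were closer still between genotypes. The lectin chaperone genes diverged. Calr (calreticulin) read 11.88, 13.66 and 13.55 in Keap1_KO cells, against 11.60, 12.85 and 11.90 in WT cells, and Keap1_KO B lay within the WT range. Its difference was 0.92 (SE 0.56; limma adjusted p = 0.514), whereas that of Canx (calnexin), its membrane-bound relative, was -0.16 (SE 0.23). Creld2, an ER-resident folding factor induced by ER stress, had the largest difference of the chaperone group, with 9.53, 10.93 and 11.10 in Keap1_KO cells, against 9.44, 9.40 and 8.72 in WT cells. All Keap1_KO arrays were above all WT arrays, although Keap1_KO B exceeded WT A only slightly. The difference was 1.33 (SE 0.46, 2.52-fold; limma adjusted p = 0.476). Dnajb9 (ERdj4), a BiP co-chaperone, was the gene with the most negative difference, -0.53, and Keap1_KO D (11.42) lay above WT F (11.35). The BiP co-chaperone Dnajb11 (0.63), Sdf2l1 (0.62) and the HSP70-type chaperone Hyou1 (0.44) had higher means with overlapping groups. The cluster that Manf shares with Rbm15b differed by 0.024.

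Of the 5 disulfide enzyme genes with a cluster of their own, 4 had a higher mean in Keap1_KO cells. P4hb, which encodes protein disulfide isomerase, read 9.99, 11.31 and 11.99 in Keap1_KO cells, against 10.48, 10.78 and 9.25 in WT cells (difference 0.92, SE 0.61; limma adjusted p = 0.528). Keap1_KO B lay below 2 of the 3 WT arrays. Pdia6 differed by 0.79 (SE 0.38) and Pdia3, which works with calreticulin and calnexin, by 0.11 (SE 0.22). The oxidases that recharge these enzymes, named by the array with older symbols, ran in opposite directions, with 0.44 for Ero1l (now Ero1a) and -0.36 for Ero1lb (now Ero1b), and both groups overlapped. The cluster that Pdia4 shares with a microRNA gene differed by 0.52 (exact permutation p = 0.5).

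ER-associated degradation extracts misfolded proteins from the ER for the proteasome. Of its 8 genes, 6 had a higher mean in Keap1_KO cells, at a median of 0.48. In 2 of the 8 every Keap1_KO array lay above every WT array, against 9.11% of all genes. Differences between roles were not tested. Syvn1, the ubiquitin ligase HRD1, read 7.77, 7.82 and 7.91 in Keap1_KO cells, against 7.39, 7.59 and 6.92 in WT cells. The Keap1_KO arrays lay close together (SD 0.072) and all above WT (difference 0.54, SE 0.21; limma adjusted p = 0.476). Sel1l, the HRD1 partner, differed by -0.014 (SE 0.24). Edem2, a mannosidase of glycoprotein degradation, read 7.60, 8.24 and 7.91 in Keap1_KO cells, against 7.26, 7.40 and 7.02 in WT cells, a difference of 0.69 (SE 0.22; limma adjusted p = 0.476). Its relative Edem1 differed by -0.041. Selenos, a selenoprotein of the same machinery, read 10.31, 12.07 and 12.14 in Keap1_KO cells, against 10.31, 10.86 and 9.75 in WT cells. Keap1_KO C and D exceeded all WT arrays and Keap1_KO B did not (difference 1.20, SE 0.55; limma adjusted p = 0.478). Herpud1, an ER membrane protein of the same complex, read 8.86, 9.25 and 10.39 in Keap1_KO cells, against 8.28, 9.18 and 8.29 in WT cells. WT D exceeded Keap1_KO B, and the difference was 0.92 (SE 0.46; limma adjusted p = 0.484). Derl1 and Derl2 differed by 0.41 and 0.42.

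All 9 translocation and signal peptidase genes with a cluster of their own had a higher mean in Keap1_KO cells, at a median of 0.42, with unlike values among subunits of one complex. The translocon-associated protein complex (TRAP), which helps chains enter the ER, has 4 subunits among the listed genes. Ssr2, its beta subunit, read 10.68, 13.11 and 13.05 in Keap1_KO cells, against 9.76, 11.20 and 9.15 in WT cells. Keap1_KO C and D stood well above every WT array and Keap1_KO B lay below WT D. The difference, 2.24 (SE 0.81, 4.72-fold), was the largest of all 36, with a limma adjusted p of 0.476. Ssr1 and Ssr3, the alpha and gamma subunits, differed by 0.076 (SE 0.20) and 0.098 (SE 0.27), and Ssr4, the delta subunit, by 0.70 (SE 0.31). The differences between subunits were not tested. The channel subunits Sec61a1 and Sec61b differed by 0.27 and 0.28, and the cluster that Sec61g shares with predicted genes by 0.18. Sec11c, Spcs2 and Spcs1 of the signal peptidase differed by 0.58, 0.54 and 0.42.

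**Figure D2:**
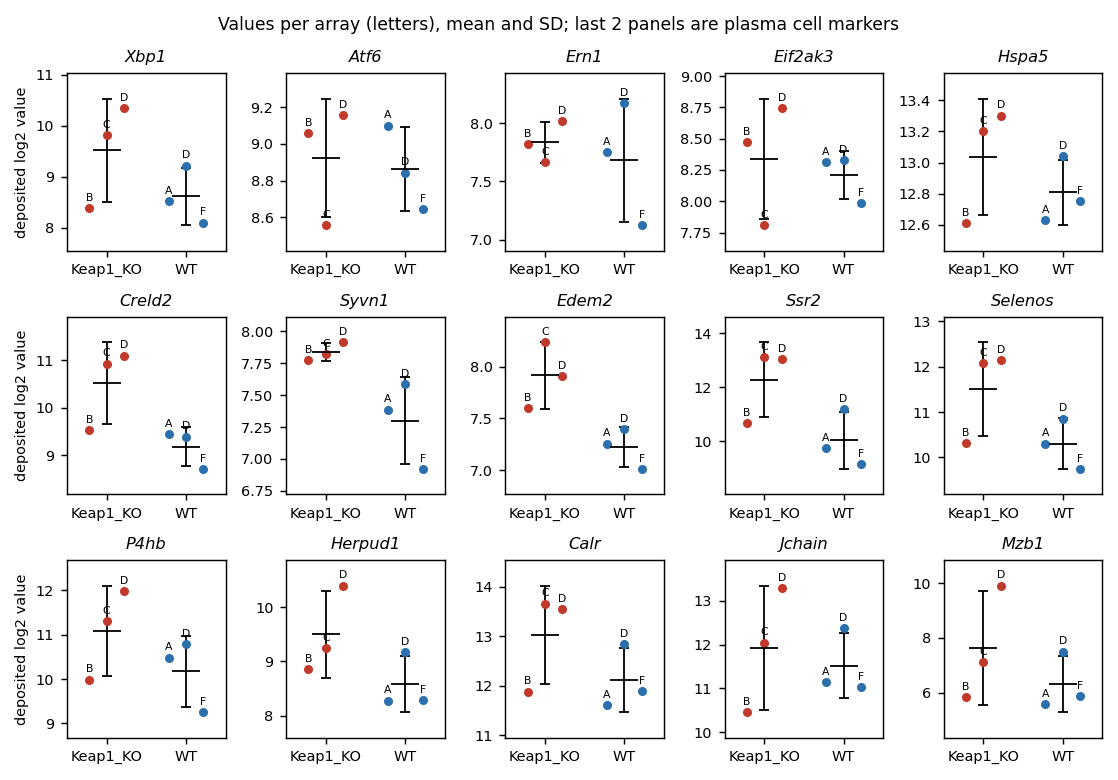
Deposited log2 values (y axis) on each array, Keap1_KO left and WT right, with array letters, mean and SD (n = 3 each), for 13 ER genes and the plasma cell markers Jchain and Mzb1. Keap1_KO arrays lie above all WT arrays in the panels of Creld2, Syvn1 and Edem2, and in most other ER panels Keap1_KO B sits among the WT arrays.

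The ER genes moved together across arrays within each genotype. Keap1_KO B was the lowest Keap1_KO array for 28 of the 36 genes (77.8%, against 46.9% of all genes) and Keap1_KO D the highest for 28 (against 36.5%). In WT cells, WT D was the highest array for 32 of 36 (88.9%, against 46.8% of all genes) and WT F the lowest for 32 (against 48.2%). Keap1_KO B lay within the WT range for 28 of 36 genes (77.8%, against 65.9% of all genes). Both Keap1_KO C and D lay above every WT array for 20 of 36 genes (55.6%, against 31.4% of all genes). The mean deviation of the 36 genes from their 6-array means was -0.19, 0.29 and 0.58 on the Keap1_KO arrays B, C and D, against -0.24, 0.17 and -0.61 on WT A, D and F. For all genes it was -0.045, 0.080 and 0.17 on the Keap1_KO arrays, against -0.098, 0.035 and -0.14 on the WT arrays. The order of arrays was thus alike in both, with a wider range in the ER genes.

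**Figure D3:**
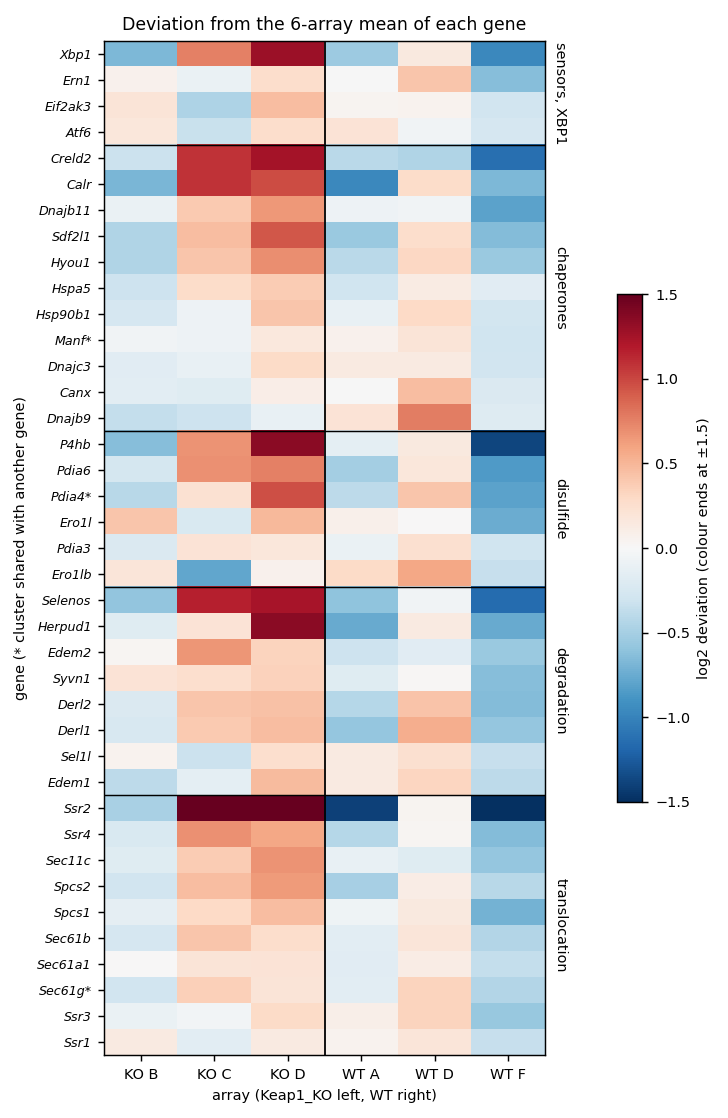
Log2 deviation of each of the 39 ER genes from its mean over 6 arrays (colour), by role, with Keap1_KO arrays on the left and WT arrays on the right. The columns of Keap1_KO C, Keap1_KO D and WT D are mostly red and that of WT F is blue throughout, and Ssr2, P4hb, Herpud1 and Xbp1 reach the strongest colours.

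Some markers of other cells moved with the same arrays, and others did not. The plasma cell marker Jchain, the joining chain of secreted antibodies, read 10.45, 12.04 and 13.29 on Keap1_KO B, C and D, against 11.15, 12.37 and 11.02 on WT A, D and F. Mzb1, an ER cofactor of antibody assembly, read 5.83, 7.11 and 9.91 on the Keap1_KO arrays, against 5.59, 7.50 and 5.86 on the WT arrays. Both were highest on Keap1_KO D, followed by WT D and Keap1_KO C, the arrays on which the ER genes were high. All 8 plasma cell markers lay at or above the array median on every array. The log2 of their summed linear values, in which Jchain has the highest values, was 11.04, 12.38 and 13.54 on the Keap1_KO arrays, against 11.53, 12.60 and 11.40 on the WT arrays. Prdm1, a transcription factor of plasma cells that some T cells also express, read 7.48, 7.16 and 7.86 on the Keap1_KO arrays, against 7.26, 7.58 and 7.09 on the WT arrays. Eaf2 was likewise lowest of the Keap1_KO arrays on Keap1_KO C. Sdc1, the surface marker CD138, stayed between 5.54 and 5.87 on the Keap1_KO arrays and between 5.69 and 5.94 on the WT arrays, near the array medians. In bulk RNA, fewer cells of a type and less RNA per cell cannot be told apart. Neutrophil markers had a log2 sum of 15.43, 18.48 and 19.99 on the Keap1_KO arrays, against 14.45, 17.58 and 16.20 on the WT arrays, with 9 of 12 at or above the median on all arrays. Elane, a granule protease gene, was below the array median on Keap1_KO B, WT D and WT F. The 7 macrophage and monocyte markers deviated by -0.16, 0.32 and 0.68 on the Keap1_KO arrays, against -0.44, 0.29 and -0.69 on the WT arrays. Their array order was that of the ER genes. Of these 7, 5 had a higher mean in Keap1_KO cells and 3 lay at or above the median on all arrays. The 5 dendritic cell markers deviated by -0.025, -0.12 and 0.13 on the Keap1_KO arrays, against -0.030, 0.28 and -0.24 on the WT arrays. The 9 B cell markers deviated by 0.43, -0.49 and 1.03 on Keap1_KO B, C and D, against -0.36, 0.61 and -1.23 on WT A, D and F. By this mean Keap1_KO B lay above Keap1_KO C, unlike the ER genes. Their log2 sum was 11.46, 11.44 and 13.16 on the Keap1_KO arrays, against 10.55, 12.02 and 9.55 on the WT arrays. By both measures Keap1_KO D and WT D were the highest arrays of their genotype and WT F the lowest WT array, as for the ER genes. The 10 CD4 T cell and Treg markers deviated by -0.19, 0.65 and 0.68 on the Keap1_KO arrays, against -0.49, -0.08 and -0.57 on the WT arrays. Their array order was that of the ER genes, and 8 of the 10 had a higher mean in Keap1_KO cells. Single markers were unlike. Tnfrsf18, Lat and Cd4 differed between genotypes by 2.35, 1.12 and 1.04, whereas Il2ra, Ikzf2 and Ctla4 differed by -0.046, -0.11 and 0.081. Of the Keap1_KO arrays, Il2ra was lowest on Keap1_KO D and Ikzf2 highest on Keap1_KO B. Clusters shared among globin genes, which mark red blood cells, separated the genotypes. The beta globin cluster read 13.03, 14.25 and 14.93 in Keap1_KO cells, against 9.71, 9.34 and 9.85 in WT cells (difference 4.44 for Hbb-bs). The alpha globin cluster read 13.19, 12.37 and 13.15 in Keap1_KO cells, against 9.49, 8.61 and 11.82 in WT cells (difference 2.93 for Hba-a1). The erythroid genes Alas2 and Klf1 differed by -0.39 and 0.015 with overlapping groups. The part of red cell, macrophage or T cell content in the ER gene differences was not tested.

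With the mean of Jchain and Mzb1 as a covariate, the median difference of the 36 genes was 0.19 and 27 had a positive difference. Over all genes the median was 0.039 and 55.2% had a positive difference. With the neutrophil markers as covariate the ER values were 0.077 and 25, against 0.026 and 54.1% of all genes. No ER gene passed in either fit. The lowest limma adjusted p of an ER gene was 0.570 with the plasma cell covariate and 0.9998 with the neutrophil covariate. Under the plasma cell covariate the difference was 1.61 for Ssr2, 1.01 for Creld2, 0.77 for Selenos and 0.61 for Edem2. It was about 0.4 to 0.5 for Herpud1 (0.51), Calr (0.48), P4hb (0.44) and Xbp1 (0.43), which each had about 0.9 without it. With the neutrophil covariate, Ssr2 had 1.24, Creld2 0.78, Edem2 0.57, Selenos 0.49, Herpud1 0.27, Calr 0.20, P4hb 0.16 and Xbp1 0.13, and Hspa5 had -0.055. Both covariates were highest on Keap1_KO D, where the ER genes were highest too, and Mzb1 itself acts in the ER. The fits therefore cannot separate the content of these cells from other differences between arrays. The part of plasma cells or neutrophils in the differences was not tested.

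**Figure D4:**
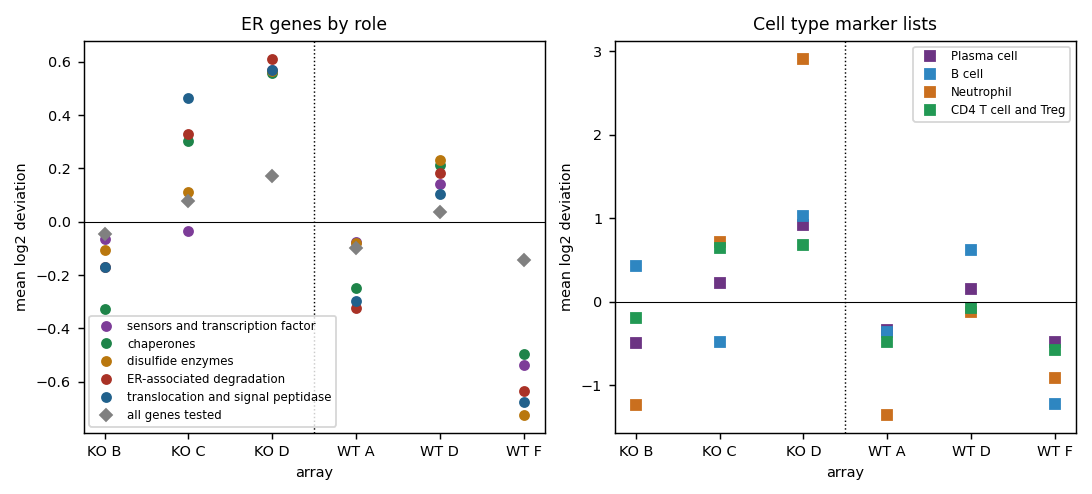
Mean log2 deviation (y axis) on each array of the ER genes by role and of all genes tested (left panel) and of 4 cell type marker lists (right panel), with Keap1_KO arrays left of the dotted line. Keap1_KO D is highest for each ER role and for the plasma cell, B cell, neutrophil and CD4 T cell lists, and WT F is lowest for each ER role.

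Single arrays decided the counts. Without Keap1_KO B, 20 of the 36 genes had all remaining Keap1_KO arrays above all WT arrays (against 31.4% of all genes), Creld2 passed (1.83, limma adjusted p = 0.0421), and 569 of all genes passed (3.38%). Without WT D the count was 13 (against 23.7%), and without Keap1_KO C it was 5 (against 11.2%). With limma array weights, which gave WT A a weight of 3.38 and Keap1_KO B 0.352, 6 ER genes passed, all higher (Creld2, Edem2, Pdia6, Selenos, Ssr2 and Ssr4), among 1880 of all genes (11.2%). At an unadjusted p under 0.05, in either direction, the count of 4 ER genes (against 10.3% of all genes) became 15 without Keap1_KO B (against 27.1%) and 9 without WT D (against 11.9%). It became 2 without WT A (against 4.84%), 1 without Keap1_KO D (3.36%), 1 without WT F (5.58%) and 0 without Keap1_KO C (3.45%). The share of all genes thus moved with the same arrays. Among the genes given by array, fits that left out 1 array gave 0.49 to 1.47 for Xbp1 and 0.46 to 1.47 for P4hb. They gave 0.47 to 1.24 for Herpud1, 0.60 to 1.49 for Calr and 0.098 to 0.44 for Hspa5. With array weights, the differences of these genes were 1.31, 1.07, 1.28, 1.58 and 0.47 in that order. The median difference of the 36 genes was 0.21 without WT F, 0.28 without Keap1_KO D and 0.62 without WT D.

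Genes that share the ERSE letters spread over most of the range of differences. The 9 genes ranged from -0.36 (Ero1lb) to 1.33 (Creld2), with a median of 0.23 and 7 higher, whereas the 21 other genes with a window and a cluster of their own had a median of 0.42 and 18 higher. Of all 16 genes tested that hold an ERSE in the window, 9 are ER genes of the list and 7 are not. These 7, Acnat2, Adcy3, Alg12, Derl3, Hnrnpa3, Pan2 and Ptgdr2, had a median of 0.21 with 4 higher. Derl3 is itself a gene of ER-associated degradation, counted here also among the plasma cell markers and the other ER and secretory genes. Alg12, a mannosyltransferase of glycan assembly, lies on the opposite strand to Creld2, and both windows hold the same element shown above for Creld2. The Alg12 difference was 0.24 (limma adjusted p = 0.587), beside 1.33 for Creld2, and the difference between the 2 genes was not tested. Herpud1 and Dnajb11, with an ERSE-II, differed by 0.92 and 0.63.

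The length of the gene was a property that the listed genes varied in along with their differences. The genomic span, from the RefSeq gene table (GRCm38.p6), was known for all 36. The 18 shorter genes (1.84 to 14.6 kb) had a median difference of 0.58 with 17 higher, and the 18 longer genes (15.19 to 164.13 kb) one of 0.14 with 14 higher. Spearman's rho between span and difference was -0.48 across the 36 genes, and -0.26 across 10996 coding genes tested, as a description over genes that share the same 6 arrays. The fifth of coding genes with the shortest span had a median difference of 0.17 and the fifth with the longest -0.073. The shorter ER genes deviated by -0.34, 0.54 and 0.78 on Keap1_KO B, C and D, against -0.40, 0.17 and -0.75 on WT A, D and F. The longer ones deviated by -0.042, 0.031 and 0.37 on the Keap1_KO arrays, against -0.073, 0.17 and -0.46 on the WT arrays. The shorter genes thus varied more between arrays of 1 genotype as well as between genotypes. Dnajb9 (4.17 kb, -0.53) was a short gene with a lower mean, and the sensors Atf6, Ern1 and Eif2ak3 were the longest 3.

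**Figure D5:**
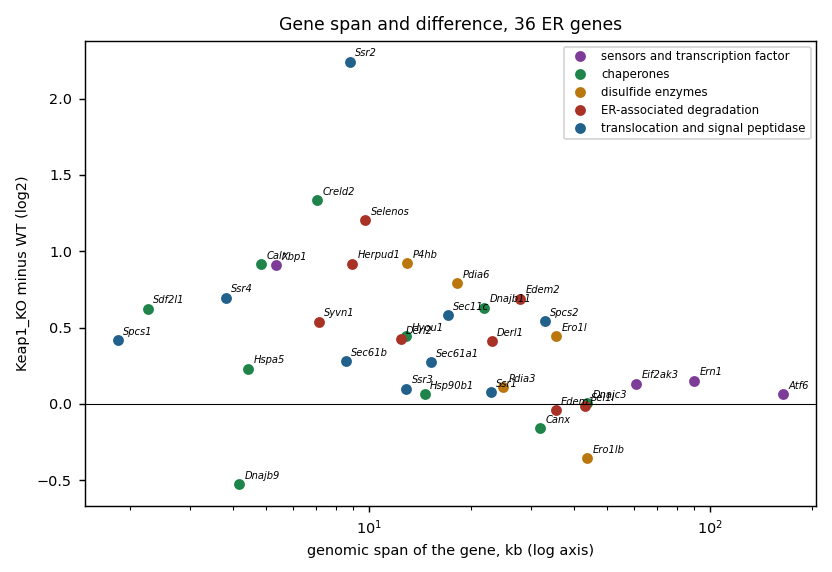
Genomic span of each gene in kb (x axis, log axis) and Keap1_KO minus WT difference (y axis, log2) for 36 ER genes, coloured by role. Genes above 0.8 all span less than 20 kb, and the 3 sensors at the right end lie near 0.

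Other genes of the ER and the early secretory pathway also had mostly higher means in Keap1_KO cells. Of 83 listed, 72 were tested, 58 had a higher mean in Keap1_KO cells (80.6%) and the median difference was 0.36. None passed limma with adjustment over all genes, and at an unadjusted p under 0.05, 10 were higher (against 8.38% of all genes) and 1 lower (against 1.92%). In 5 of the 72 (6.94%) all Keap1_KO arrays lay above all WT arrays, below the 9.11% of all genes. In the PERK branch, Ddit3, which encodes the transcription factor CHOP, read 9.20, 10.57 and 10.58 in Keap1_KO cells, against 8.74, 9.02 and 8.89 in WT cells, without overlap (difference 1.23, limma adjusted p = 0.476). Atf4, the factor upstream of CHOP, differed by 0.46, and Ppp1r15a, the feedback phosphatase subunit, by 0.32, both with overlap. Ppp1r15b differed by -0.29, also with overlap. Of the 5 genes of this branch that were tested, 3 had a higher and 2 a lower mean in Keap1_KO cells. Trib3 and Chac1, targets of the same branch, lay below the array median on every array. Of the listed subunits of the oligosaccharyltransferase, which attaches N-glycans, Ddost, Ostc and Rpn1 differed between genotypes by 1.57, 1.46 and 1.45, Rpn2 by 0.88, Dad1 by 0.30, and the catalytic subunits Stt3a and Stt3b by 0.020 and -0.17. None of these passed, and differences between subunits were not tested. Ppib, an ER prolyl isomerase, read 13.71, 16.00 and 15.96 in Keap1_KO cells, against 12.04, 14.15 and 12.73 in WT cells, with Keap1_KO B below WT D (difference 2.25, limma adjusted p = 0.476). Fkbp2, another ER prolyl isomerase, read 11.98, 13.25 and 13.58 in Keap1_KO cells, against 11.69, 11.90 and 11.61 in WT cells, without overlap. In transport to the Golgi, the cargo receptor Lman2 differed by 1.49 and the KDEL receptor Kdelr2, which returns ER proteins, by 1.25, the coat GTPase gene Sar1b by 1.03 and the coat gene Sec24a by -0.97. Vcp and Ufd1, which pull substrates out of the ER membrane, differed by 0.59 and 0.76, and Srp14 and Srp68 of the signal recognition particle by 0.90 and 0.88.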

How the data were processed

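Total RNA (40 ng) was amplified and hybridised per the labels' protocols. The authors deposited normalized log2 values for each array. The tools named, without versions, are RMA, Transcriptome Analysis Console and Affymetrix Expression Console, per the submitters' processing notes. No genome build was given in the sources used here. Values ran from 1.88 to 19.93, and some exceed the 16 that a scanner allows, a rescaling that no source used here states. Differences, folds and log2 sums therefore refer to the deposited scale and may not equal ratios of measured signal. The cluster identifiers match the annotation of another Affymetrix mouse array than the one the design text names. Arrays have no read depth and their number limits the precision.

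Clusters (65528) were named through the platform annotation and Entrez identifiers: 30354 carried 1 gene symbol, 2118 several and 33056 were unnamed here. A cluster was tested when at or above its array's median on at least 3 of 6 arrays, and the brightest cluster stood for a gene (148 genes had several). All 36 genes with their own cluster passed. limma 3.58.1 (lmFit, eBayes) in R 4.3.3 compared the genotypes, two-sided, with Benjamini-Hochberg adjustment over 16825 genes at 0.05, and was tested on simulated data. Single values had an exact permutation test. The genes and lists were chosen with earlier results of these data known. Values on every array are given for the sensors, Xbp1, Hspa5, genes whose groups did not overlap and the 6 largest differences. Up to 4 genes of each other list are named by size of difference. Rpn2, Dad1, Stt3a, Stt3b, Trib3, Chac1, Elane, Prdm1, Eaf2 and the globin clusters were named after their values were seen. So were Tnfrsf17, Tnfrsf13b, Derl3, Il2ra, Ikzf2 and Ctla4. Promoter sequences are from RefSeq (GRCm38.p6).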

Additional observations from a re-analysis of the deposited data

How the results depend on the processing

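The 15 alternatives comprised filters, cluster choice, scaling, array weights, the variance prior, 2 covariates and leaving out each array. Over all of them the median difference of the 36 ER genes stayed positive, and the number with a higher mean ranged from 24 to 34. With array weights, 1880 genes passed, of them 6 ER genes and 11 other secretory genes, and 20 ER genes had an unadjusted p under 0.05 (35.0% of all genes). The weighted difference of Atf6 was -0.13. With a variance trend 1 gene passed in all, the predicted gene Gm20658. With neutrophil markers as covariate 0 ER genes had an unadjusted p under 0.05 (3.62% of all genes), and Hspa5 was -0.055. Leaving out 1 array gave ranges of 0 to 569 for all genes passing, 0 to 1 for ER genes passing, 3 to 20 for ER genes above WT without overlap (10.7% to 31.4% of all genes), 0 to 15 for those with an unadjusted p under 0.05 (3.36% to 27.1%) and 0 to 3 for other secretory genes passing. It also gave -0.054 to 0.25 for Atf6, -0.13 to 0.40 for Ern1 and -0.069 to 0.40 for Eif2ak3. The cause of these changes was not tested. Centring arrays moved the median of all genes to 0.17 and that of the ER genes to 0.53, and repeated quantile normalization to 0.14 and 0.43. The ER median exceeded that of all genes by 0.36, 0.36 and 0.29 as deposited, centred and quantile-normalized, and 68.6% and 65.9% of all genes had a higher mean after centring and quantile normalization. No paired analysis was possible because the genotypes share only 1 replicate letter.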
